A study of Mus musculus with 12 samples.

Results

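The response of the mouse heart to transverse aortic constriction (TAC) was described over all 12 libraries of the series, 6 from hearts after TAC and 6 from hearts after a sham operation. The members are the 12 libraries themselves, chosen by their labels and not by any measured value, and prenatal exposure entered the comparison as an additive term. The 4 groups, of 3 hearts each, were diesel exhaust with TAC, filtered air with TAC, diesel exhaust with sham operation, and filtered air with sham operation. Both exposures took place in utero from embryonic day 0.5 (E0.5) to E17.5, the operation was done at 12 weeks of age with a 27 gauge needle, echocardiography preceded it at 11 weeks, and the tissue was taken at 15 weeks. All 12 animals thus had 1 of the exposures before birth and an operation as adults. The labels name the tissue as heart without a chamber. The sources used here give no strain, litter, sex or run, so hearts of 1 group may share a litter, in which case the p-values would be too small.

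TAC narrows the aortic arch and loads the left ventricle with pressure. In textbook accounts the myocardium answers by hypertrophy, by renewed use of genes of the fetal ventricle such as the natriuretic peptides, skeletal alpha-actin and beta-myosin, and by deposition of collagen and other matrix by activated fibroblasts. As load persists, genes of fatty acid oxidation and of repolarising ion currents are known to decline. In bulk tissue of this kind, fewer cells of a type and less RNA per cell cannot be told apart.

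Total counts ran from 7837190 to 13265816 in TAC libraries and from 5534685 to 10403385 in sham libraries, and 13626 of 20355 genes with a count were tested. The mitochondrial genome gave 25.1% to 30.7% of all counts in TAC libraries and 18.3% to 32.4% in sham libraries. Diesel exhaust sham replicate 2 stood apart, with both the lowest total count and the lowest mitochondrial share. Without it the number of genes past the threshold was 1156, against 1184 with it. The similar totals hide a turnover, as 969 of the 1184 genes (81.8%) were called in both fits. RNA of Y-linked genes was present in all 12 libraries. Levels are given in CPM, counts scaled to a common library size with TMM factors, and 3 counts in a library corresponded to 0.217 to 0.375 CPM in TAC libraries and 0.317 to 0.501 CPM in sham libraries. That floor covers counting error only.

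Over 6 and 6 hearts, 1184 genes (8.69% of those tested) passed an adjusted p of 0.05 in edgeR's quasi-likelihood test. Of these, 601 (4.41%) were higher and 583 (4.28%) lower after TAC. In the contrasts of 3 against 3 hearts, 442 genes (3.24%) passed after diesel exhaust and 113 (0.829%) in filtered air. The pooled test thus held 745 genes (5.47%) that passed in neither 3 against 3 contrast, 359 (2.63%) higher and 386 (2.83%) lower. These comparisons share their libraries, so this count is not a replication. Each comparison also had its own adjustment of p-values, so the count depends on the adjusted cut-off as well as on the added hearts. The number depended on single libraries: without filtered air TAC replicate 2 the pooled test called 722 genes, and 322 of them in neither 3 against 3 contrast.

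Most of the 745 genes changed moderately. The median absolute log2 fold change of the 745 was 0.61, with quartiles of 0.49 and 0.91, and 582 of them (78.1%) changed less than 2-fold. The 95 genes past the threshold in both exposures had a median of 1.47. The choice of these classes largely fixes this order and the shares by size that follow, because 3 against 3 contrasts are less precise. Among called genes that changed 1.25 to 1.5-fold, 344 of 384 (89.6%) passed in the pooled test only. For those between 1.5 and 2-fold the count was 238 of 436 (54.6%), and above 4-fold it was 34 of 77 (44.2%). The median SE of a log2 fold change was 0.206 over 6 and 6 hearts, against 0.293 and 0.295 in the 3 against 3 contrasts after diesel exhaust and in filtered air. The smallest change called was 1.26-fold.

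**Figure D1:**
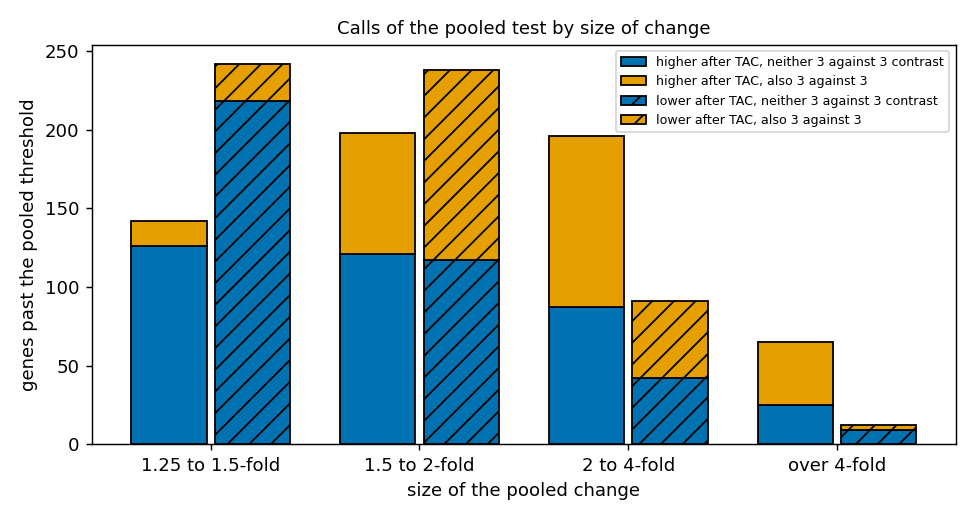
Genes past the pooled threshold (vertical axis, number of genes) by the size of their change (horizontal axis), with plain bars for genes higher after TAC and hatched bars for genes lower, and blue for genes past the threshold in neither 3 against 3 contrast. Between 1.25 and 1.5-fold, 242 genes were lower and 142 higher, whereas above 4-fold 12 were lower and 65 higher.

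Among called genes, small changes were more often falls and large changes more often rises. Of genes changed 1.25 to 1.5-fold, 142 were higher and 242 lower after TAC, and of those changed over 4-fold, 65 were higher and 12 lower. The median log2 fold change of all genes tested was 0.0026. All 6 TAC libraries lay on one side of all 6 sham libraries for 587 genes (4.31% of those tested), of which 510 (3.74%) passed the pooled threshold. Of the 745 genes, 229 (30.7%) had no such overlap, against 91 (95.8%) of the 95 called in both exposures.

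Genes called in 1 exposure mostly changed in the same direction in the other. All 745 genes had the same sign in both 3 against 3 contrasts, which the choice of genes largely fixes, and 443 had an unadjusted p under 0.05 in each. To read direction in hearts that the choice had not used, each exposure was also fitted on its own 6 libraries. Of 86 genes called there in filtered air, 86 had the same sign after diesel exhaust, with a median change of 1.5 in the direction of the choice. Of 443 called after diesel exhaust, 438 (98.9%) had the same sign in filtered air, where their median change was 0.75 against 1.14 where they were chosen. Those called in filtered air had a median absolute change of 1.45 there. Both sets thus changed more than the 745 genes, whose median was 0.61. Across all genes tested, the log2 fold changes of these 2 fits had a Pearson r of 0.523 and a Spearman rho of 0.478. No gene passed the adjusted threshold for an exposure by surgery interaction in edgeR, and 326 genes (2.39% of those tested) had an unadjusted p under 0.05. Of the 1184 called genes 38 (3.21%) did so.

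**Figure D2:**
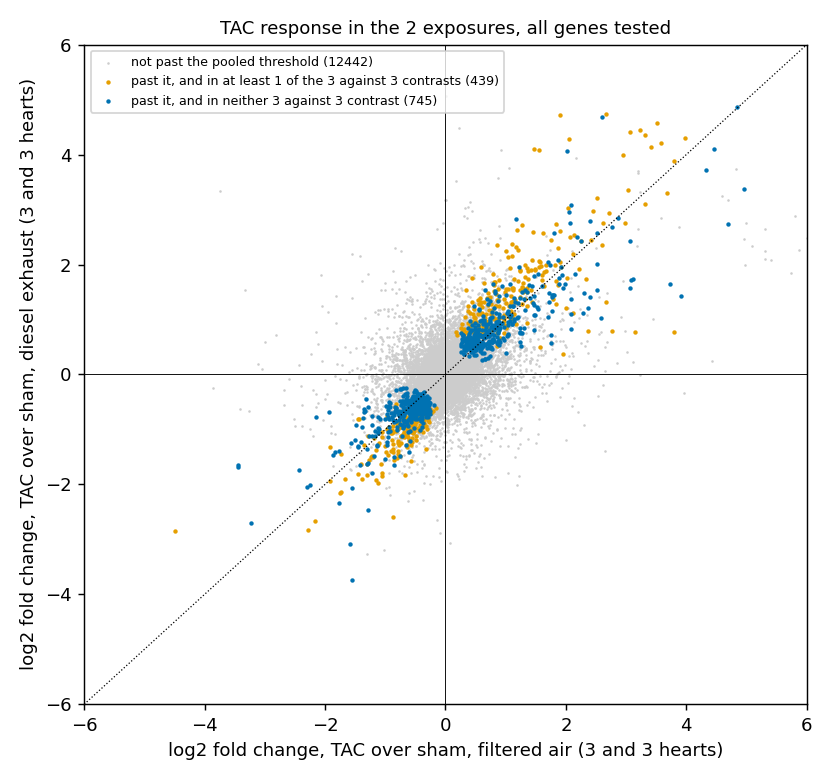
Log2 fold change of TAC over sham after diesel exhaust (vertical axis) against that in filtered air (horizontal axis) for every gene tested, with 7 genes outside the axes. Blue marks the 745 genes that passed the pooled threshold alone, 78.1% of which changed less than 2-fold in the pooled test. They lie in the quadrants of shared direction, which the choice of genes largely fixes. Orange marks called genes that also passed in a 3 against 3 contrast.

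Each gene named from here on kept its call in every 1 of the 12 fits that left out a library, unless the number of fits that lost it is given. Over the whole set, 627 of the 1184 called genes and 236 of the 745 kept it in all 12 fits.

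The genes with the smallest p among the 745 were led by Mmp14, a membrane-bound matrix metalloprotease (gene number 17387, chromosome 14, 54431598 to 54442456 in GRCm38.p6). Mmp14 had 11.5, 13.8 and 20.1 CPM (lowest, median and highest) in TAC hearts and 4.67, 6.75 and 9.56 CPM in sham hearts. No TAC heart overlapped a sham heart, and Mmp14 was 2.19-fold higher after TAC (log2 1.13 ± 0.20 SE, adjusted p = 0.00103). Its adjusted p was 0.0532 after diesel exhaust and 0.0595 in filtered air, with log2 changes of 1.05 and 1.21. Adamts1, a secreted protease that cleaves versican, had 49.2, 60.8 and 105 CPM in TAC hearts and 26.2, 32.8 and 45.4 CPM in sham hearts, again without overlap (log2 1.00 ± 0.19, adjusted p = 0.00263). Vwa1, a protein of basement membranes, rose less, with 16.9, 20.9 and 24.3 CPM in TAC hearts and 11.2, 12.6 and 14 CPM in sham hearts. Its groups did not overlap either (log2 0.75 ± 0.15, adjusted p = 0.00233).

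Metabolic and signalling genes stood beside these proteases. Uck2, a kinase of pyrimidine nucleotide salvage, had 22.0, 43.2 and 64.0 CPM in TAC hearts and 9.07, 15.9 and 22.7 CPM in sham hearts. The lowest TAC heart lay just under the highest sham heart (log2 1.44 ± 0.25, adjusted p = 0.00209). Ugp2, which makes UDP-glucose for glycogen and matrix sugars, had 225, 321 and 381 CPM in TAC hearts and 159, 194 and 215 CPM in sham hearts. It rose 1.58-fold without overlap (log2 0.66 ± 0.13, adjusted p = 0.00256). Mpeg1, a pore-forming protein of macrophages, had 16.0, 18.6 and 35.9 CPM in TAC hearts and 7.49, 9.17 and 14.4 CPM in sham hearts, also without overlap (log2 1.09 ± 0.22, adjusted p = 0.0024). The other rises of this set were Gpr153, an orphan receptor (log2 1.01), Kctd11, an adaptor of a ubiquitin ligase (1.37), Igsf10 (1.25), the tetraspanin Cd9 (0.81), the cytoskeletal regulator Dpysl3 (0.92) and Dkk3, a member of the Dickkopf family (1.75).

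The falls with the smallest p were led by Creg1, a secreted and lysosomal glycoprotein (gene number 433375, chromosome 1, 165763758 to 165775309 in GRCm38.p6). Creg1 had 36.1, 42.0 and 47.1 CPM in TAC hearts and 51.1, 68.7 and 71.3 CPM in sham hearts. The groups were separate although the change was only 1.56-fold (log2 -0.64 ± 0.12, adjusted p = 0.00117). Ctnna1, the alpha-catenin that ties adherens junctions of the intercalated disc to actin, had 196, 233 and 256 CPM in TAC hearts and 312, 336 and 353 CPM in sham hearts. It was 1.46-fold lower without overlap (log2 -0.54 ± 0.11, adjusted p = 0.00187). Cpeb3, a regulator of mRNA translation, had 38.7, 52.4 and 65.9 CPM in TAC hearts and 68.1, 89.5 and 106 CPM in sham hearts. Its groups were separate as well (log2 -0.76 ± 0.14, adjusted p = 0.00147).

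Receptors were among these falls. Chrm2, the M2 muscarinic receptor of the vagal input to the heart, had 22.8, 31.5 and 42.3 CPM in TAC hearts and 42.2, 60.2 and 63.1 CPM in sham hearts. The highest TAC heart touched the lowest sham heart (log2 -0.80 ± 0.16, adjusted p = 0.00273). Crhr2, the receptor of urocortins, had 7.01, 8.26 and 13.6 CPM in TAC hearts and 11.7, 19.4 and 28.2 CPM in sham hearts, with overlap (log2 -1.04 ± 0.22, adjusted p = 0.0032). Other falls of the set were the RNA-binding Ybx2 (log2 -1.2), the cortical scaffold Erc1 (-0.65), Ralgapa2, which switches off Ral GTPases (-0.55), Mllt6 (-0.61), Plekha5 (-0.76) and Zfp612 (-0.98).

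**Figure D3:**
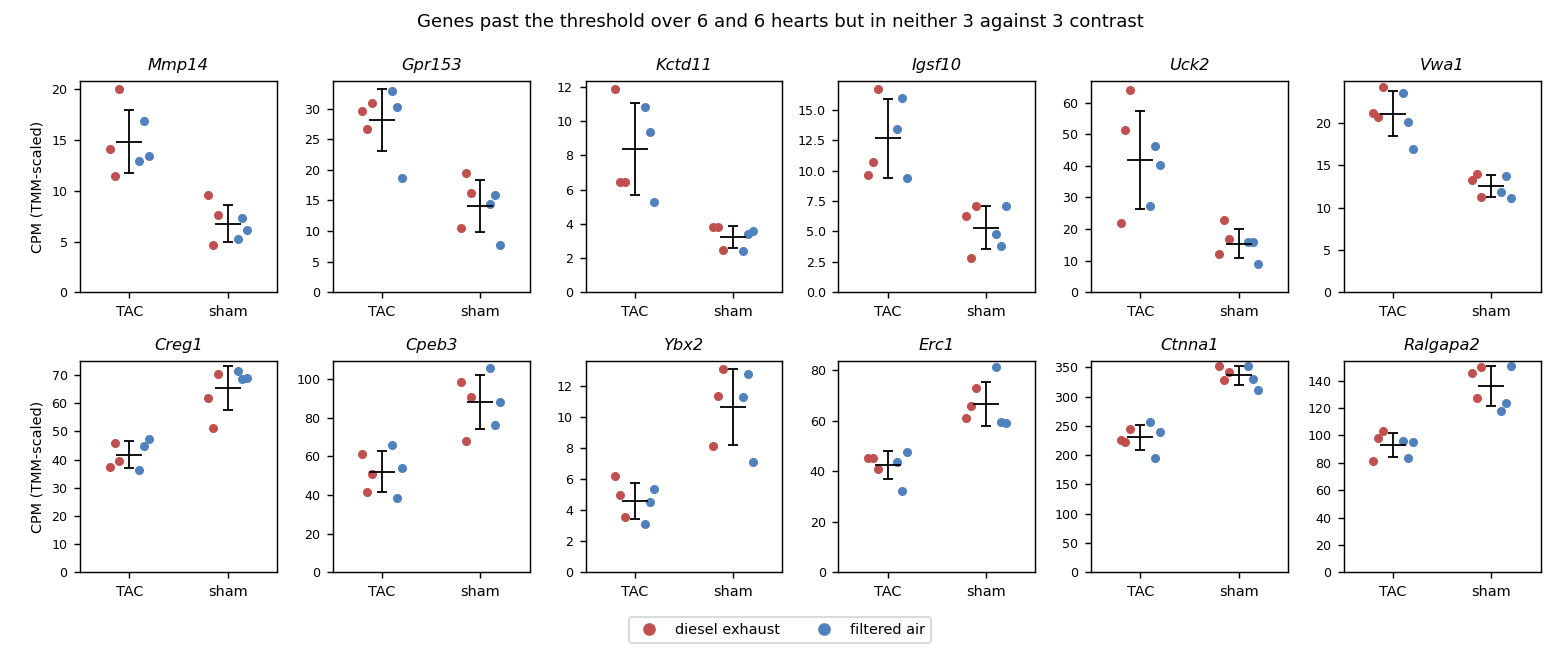
CPM per heart (vertical axes, each from 0) in TAC hearts at the left and sham hearts at the right of each panel, with red points for diesel exhaust and blue for filtered air, and the mean ± SD of 6 hearts as a bar. The 6 genes of the upper row (Mmp14, Gpr153, Kctd11, Igsf10, Uck2 and Vwa1) were higher after TAC and the 6 of the lower row (Creg1, Cpeb3, Ybx2, Erc1, Ctnna1 and Ralgapa2) lower, each passing the threshold only over 6 and 6 hearts.

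Among the rises of greatest fold without overlap, those named here also passed in a 3 against 3 contrast. Cilp, a matrix protein of fibroblasts, had 112, 260 and 308 CPM in TAC hearts and 11.4, 13.9 and 21 CPM in sham hearts, with no overlap (log2 3.90 ± 0.25, adjusted p = 5.27e-07). Thbs4, a thrombospondin, rose by 4.15 ± 0.37 and Ltbp2, a protein of microfibrils, by 3.85 ± 0.36 on the log2 scale. Serpinb1c, a serine protease inhibitor, had 0.869 to 3.12 CPM in TAC hearts and 0 to 0.44 CPM in sham hearts, and most of its sham libraries lay below the floor.

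Kcnv2, a modifying subunit of voltage-gated potassium channels, fell 5.36-fold, with 1.67, 3.12 and 4.06 CPM in TAC hearts and 7.82, 18 and 21.8 CPM in sham hearts (log2 -2.42 ± 0.27, adjusted p = 3.93e-06). Ccl11, the chemokine eotaxin, had 0 to 0.797 CPM in TAC hearts and 1.87 to 3.67 CPM in sham hearts. Sbk2, a kinase of striated muscle, had 0.0993 to 0.597 CPM in TAC hearts and 1.46 to 2.93 CPM in sham hearts. Both rest on few counts after TAC, although the groups were separate. Lvrn, an aminopeptidase, and Kif6, a kinesin, fell in the pooled test alone. Lvrn had 0 to 1.23 CPM in TAC hearts and 1.37 to 4.33 CPM in sham hearts, and its call was lost in 2 fits (adjusted p up to 0.0531, without diesel exhaust TAC replicate 3). Kif6 had 0.217 to 1.09 CPM in TAC hearts and 1.15 to 4.84 CPM in sham hearts, and its call was lost without diesel exhaust sham replicate 2 (adjusted p = 0.0749).

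Most genes of the fetal cardiac program that were tested were called higher. Of 19 members, 12 were higher and 1 lower (68.4% called, beside 8.69% of all genes tested, of which 4.41% were higher), and 5 of the rises and the fall passed in the pooled test only. The median log2 fold change of the list was 0.99, against 0.0026 over all genes tested. Nppb, which encodes B-type natriuretic peptide, had 268, 387 and 562 CPM in TAC hearts and 68.8, 81.6 and 130 CPM in sham hearts, with no overlap (log2 2.15 ± 0.18, adjusted p = 5.98e-07). Nppa, atrial natriuretic peptide, had 414, 849 and 1709 CPM in TAC hearts and 42.7, 51.8 and 105 CPM in sham hearts. Acta1, skeletal alpha-actin, had 1751, 2906 and 4007 CPM in TAC hearts and 85.2, 211 and 348 CPM in sham hearts. Both were 14.3-fold higher without overlap.

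The members that only the pooled hearts resolved included genes of mechanical sensing and calcineurin signalling. Csrp3, the muscle LIM protein of the Z-disc, had 911, 1031 and 1125 CPM in TAC hearts and 547, 770 and 836 CPM in sham hearts. The groups were separate at a change of 1.38-fold (log2 0.47 ± 0.12, adjusted p = 0.0161). Fhl1, a LIM protein that binds titin, had 137, 298 and 420 CPM in TAC hearts and 65.9, 102 and 147 CPM in sham hearts (log2 1.43 ± 0.27, adjusted p = 0.00736). Rcan1, an inhibitor and target of calcineurin, had 56.7, 117 and 199 CPM in TAC hearts and 39.9, 46.4 and 63.9 CPM in sham hearts (log2 1.34 ± 0.25, adjusted p = 0.00453). The lowest TAC heart fell within the sham range for both. Flnc, an actin crosslinker at the Z-disc, rose by 0.59 ± 0.15. Acta2, smooth muscle alpha-actin, went the other way, with 21.2, 33.0 and 47.9 CPM in TAC hearts and 38.5, 56.7 and 75.7 CPM in sham hearts (log2 -0.75 ± 0.19, adjusted p = 0.0181).

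The myosin switch was visible in both chains. Myh7, the slow beta chain, had 1265, 2445 and 3280 CPM in TAC hearts and 824, 926 and 1183 CPM in sham hearts (log2 1.26 ± 0.20, adjusted p = 4.1e-04). Myh6, the fast alpha chain of the adult mouse ventricle, had 15150, 18910 and 28690 CPM in TAC hearts and 26860, 30990 and 35830 CPM in sham hearts, and its fall passed only over 6 and 6 hearts (log2 -0.65 ± 0.16, adjusted p = 0.0126). The Myh7 share of the summed counts of both was 10.7% ± 3.45 in TAC hearts and 3% ± 0.202 in sham hearts (SD, n = 6 each). It ranged from 5.24% to 14.1% in TAC hearts and from 2.75% to 3.22% in sham hearts, and an exact two-sided permutation test within exposure gave p = 0.005, the smallest that its 400 arrangements allow. Myh6 and Myh7, and the actin genes, are near-identical in places, and how reads shared between genes were counted is not known.

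Windows of 300 bases around the start of each fetal program gene, 250 before it and 50 after, were searched in RefSeq sequence (GRCm38.p6) for CATTCC, the core of the M-CAT element bound by TEAD factors, on both strands (reverse GGAATG). The letters were present in 44.4% of the 18 windows of called members, which belong to 7 of 13 genes, in 1 of the 5 windows of members not called (20%), in 12.6% of the windows of all genes tested and in 14.7% of all 32851 windows in the table. A match is a description of the sequence and not a binding site. The windows of the 3 members with the smallest p that hold the letters are given with the match in capitals, 5′ to 3′ on the strand of the gene: Ankrd1, a titin-binding ankyrin repeat protein (chr19:36119795-36120094, minus strand, with 2 matches), Nppb (chr4:147985650-147985949, plus strand) and Mybpc2, fast myosin-binding protein C (chr7:44524620-44524919, minus strand).
Ankrd1: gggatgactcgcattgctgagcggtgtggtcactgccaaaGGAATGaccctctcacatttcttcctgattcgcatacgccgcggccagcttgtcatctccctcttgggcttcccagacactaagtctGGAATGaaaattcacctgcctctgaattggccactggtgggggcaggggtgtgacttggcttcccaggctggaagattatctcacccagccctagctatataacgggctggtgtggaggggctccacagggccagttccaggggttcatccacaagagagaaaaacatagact
Nppb: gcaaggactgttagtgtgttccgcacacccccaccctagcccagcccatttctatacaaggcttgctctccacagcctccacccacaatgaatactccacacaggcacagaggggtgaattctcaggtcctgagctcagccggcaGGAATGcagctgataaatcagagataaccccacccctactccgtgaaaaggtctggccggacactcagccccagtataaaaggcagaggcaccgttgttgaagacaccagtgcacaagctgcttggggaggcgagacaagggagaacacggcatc
Mybpc2: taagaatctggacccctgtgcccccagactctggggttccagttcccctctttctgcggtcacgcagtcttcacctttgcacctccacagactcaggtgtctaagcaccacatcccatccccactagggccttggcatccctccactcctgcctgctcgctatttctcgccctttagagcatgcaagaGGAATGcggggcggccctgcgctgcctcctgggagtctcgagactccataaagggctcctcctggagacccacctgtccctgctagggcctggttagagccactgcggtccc
The reverse form stands in each. Ankrd1 rose by 2.08 ± 0.18 and Mybpc2 by 1.56 ± 0.16 on the log2 scale, with no overlap between TAC and sham hearts for either.

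Most matrix genes tested were called higher. Of 21 collagen genes tested 18 were higher and none lower, of 33 matricellular and matrix glycoprotein genes 26 were higher and 1 lower, and of 13 proteoglycan genes 9 were higher and none lower. The median log2 fold changes of these lists were 1.23, 1.62 and 1.46. The shares called were 85.7%, 81.8% and 69.2%, beside 8.69% of all genes tested. Postn, periostin, rose by 3.46 ± 0.30 and Col1a1, a chain of type I collagen, by 1.66 ± 0.19, both without overlap. Most of these genes also passed in a 3 against 3 contrast, and what the pooled hearts added were 2 collagens, 9 glycoproteins and 2 proteoglycans.

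Of the 9 glycoproteins 8 were higher and 1 lower, and among them were 2 laminin chains of the basement membrane and 3 latent TGF-beta binding proteins. Lama2, the laminin chain that links muscle fibres to their basement membrane, had 253, 262 and 294 CPM in TAC hearts and 156, 198 and 212 CPM in sham hearts (log2 0.50 ± 0.11, adjusted p = 0.00521). Lamc1, the common gamma chain of laminins, had 308, 379 and 403 CPM in TAC hearts and 238, 263 and 285 CPM in sham hearts (log2 0.49 ± 0.11, adjusted p = 0.00563). For both, every TAC heart lay above every sham heart at a change near 1.4-fold. Ltbp4, which anchors latent TGF-beta, rose by 0.66 ± 0.15. The fall was Ltbp1, of the same family (log2 -0.39 ± 0.12, adjusted p = 0.0421), which was lost in 9 fits, with an adjusted p up to 0.112 without filtered air TAC replicate 2, and under 3 of 8 other settings. The added collagens were Col4a3 of basement membranes (log2 1.64 ± 0.39) and Col18a1, the source of endostatin (0.98 ± 0.27). Col4a3 was lost in 2 fits, with an adjusted p up to 0.0506 without diesel exhaust sham replicate 3. Col18a1 was lost in 6, with an adjusted p up to 0.0901 without filtered air TAC replicate 2. The added proteoglycans Omd (1.68 ± 0.48) and Cspg4 (0.50 ± 0.15) were lost in 6 and 9 fits, with adjusted p up to 0.101 without filtered air TAC replicate 2 for Omd and 0.0941 without filtered air sham replicate 3 for Cspg4.

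Enzymes that process, crosslink and cleave matrix changed less uniformly. Of 21 genes of collagen processing and crosslinking, 9 were higher and none lower (42.9% called, beside 8.69% of all genes tested, median log2 0.43). Only the collagen chaperone Serpinh1 was added by the pooled hearts (0.44 ± 0.12, lost in 2 fits with an adjusted p up to 0.0573 without filtered air sham replicate 3). Of 22 proteases and inhibitors 8 were higher and 2 lower (45.5% called), with 5 of the rises and both falls in the pooled test only. Beside Mmp14 and Adamts1, Ctsk, a collagen-cleaving lysosomal protease, had 5.73, 10.1 and 11.5 CPM in TAC hearts and 1.33, 3.63 and 7.35 CPM in sham hearts (log2 1.28 ± 0.30, adjusted p = 0.00844). Htra1, a secreted serine protease, fell, with 38.8, 44.4 and 57.7 CPM in TAC hearts and 50.7, 66.5 and 85.1 CPM in sham hearts (log2 -0.57 ± 0.14, adjusted p = 0.00952). Ctsk and Htra1 overlapped at the edges of the groups.

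Signalling and adhesion genes around the matrix split in direction. Of 23 genes of the TGF-beta pathway 6 were higher and 1 lower (30.4% called, beside 8.69% of all genes tested), with a median of 0.08, and 3 were higher without filtered air TAC replicate 2. Tgfbr2, the type II receptor, had 53.8, 70.2 and 75.2 CPM in TAC hearts and 42.9, 48.2 and 52.5 CPM in sham hearts, a separate rise of 1.39-fold (adjusted p = 0.00861). The TGF-beta target Tgfbi rose by 0.63 ± 0.16 and was lost without filtered air TAC replicate 2 (adjusted p = 0.0538). Of 26 integrin and focal adhesion genes 5 were higher and 3 lower (30.8% called). The rises were 8 without filtered air TAC replicate 1, and the falls were 1 without any 1 of filtered air sham replicate 1, filtered air TAC replicate 2, diesel exhaust sham replicate 2 and diesel exhaust TAC replicates 1 and 2. Itga11, a collagen receptor of fibroblasts, had 3.92, 7.62 and 9.33 CPM in TAC hearts and 0.423, 2.67 and 4.18 CPM in sham hearts (log2 1.57 ± 0.31, adjusted p = 0.00212), and Itga5, a fibronectin receptor, rose by 0.51 ± 0.13. Itgb6, a subunit that releases latent TGF-beta, fell, with 12.1, 18.2 and 28.3 CPM in TAC hearts and 23.4, 31.9 and 45.4 CPM in sham hearts (log2 -0.75 ± 0.17, adjusted p = 0.00794).

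Of 35 genes of the actin and tubulin cytoskeleton 13 were higher and none lower (37.1% called, beside 8.69% of all genes tested), 8 of them in the pooled test only, and the median was 0.46. Anxa2, a membrane-actin linker, had 78.0, 98.5 and 119 CPM in TAC hearts and 42.2, 49.9 and 91.0 CPM in sham hearts (log2 0.76 ± 0.17, adjusted p = 0.00556). Tubb2a, a beta-tubulin, had 19.7, 27.6 and 50.5 CPM in TAC hearts and 11.1, 17.9 and 20.9 CPM in sham hearts (log2 0.84 ± 0.19, adjusted p = 0.00789). The galectin Lgals1 rose by 0.50 ± 0.12. All overlapped between the groups.

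The fibroblast markers that passed were rises, most of them in genes of the matrix lists above. Of 13 markers 9 were higher and none lower (69.2% called, beside 8.69% of all genes tested), their summed level was 2500 to 4170 CPM in TAC hearts and 1660 to 2250 CPM in sham hearts, and none was at 0. Of these, 4 are themselves collagens or periostin, and the identity markers Pdgfra (log2 0.39 ± 0.13, adjusted p = 0.0697) and Tcf21 (0.62 ± 0.28, adjusted p = 0.199) did not pass. The called markers outside those were the proteoglycans Dcn (0.85) and Lum (1.46), the microfibril protein Mfap5 (2.86), the secreted Pi16 (1.27) and the collagen receptor Ddr2 (0.47, lost in 9 fits with an adjusted p up to 0.125 without diesel exhaust sham replicate 1). Dcn, Lum and Mfap5 were also counted in the matrix lists above, so the called markers are mostly not a separate reading of those lists. The part of fibroblast number in the rise of matrix genes was not tested.

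**Figure D4:**
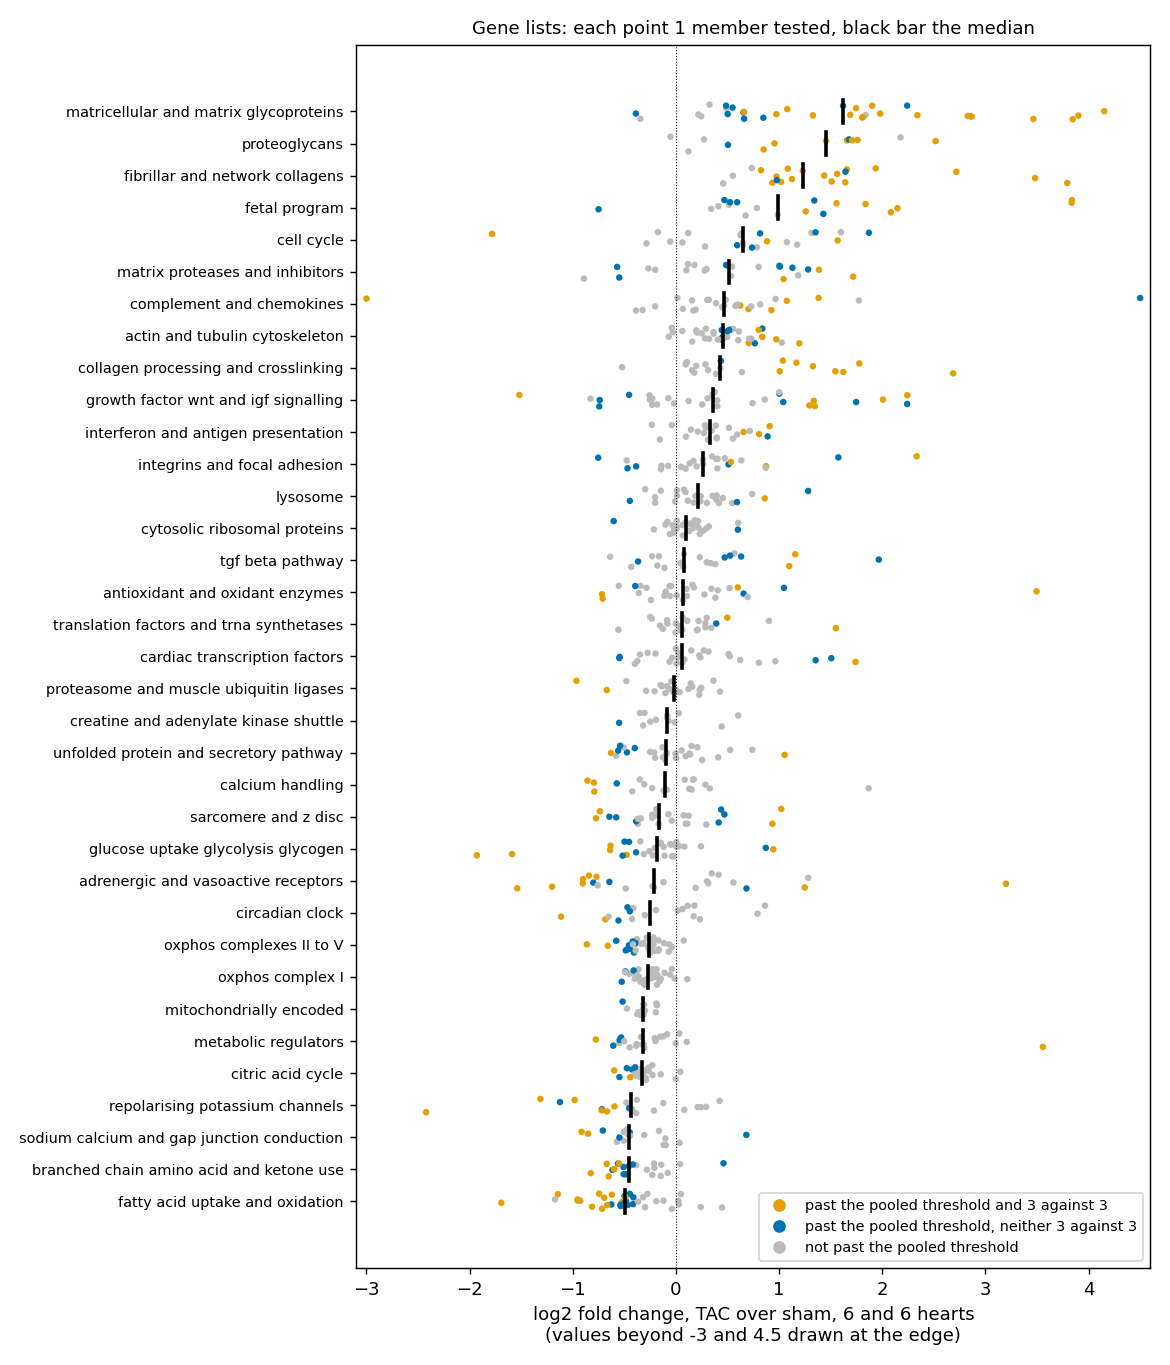
Log2 fold change of TAC over sham over 6 and 6 hearts (horizontal axis) for every member tested of each gene list (rows), with blue for members past the pooled threshold alone, orange for members also past a 3 against 3 contrast, grey for the rest and a black bar at the median. Matrix lists sit to the right, with medians of 1.62 for glycoproteins and 1.23 for collagens, and fatty acid genes to the left, with a median of -0.49.

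Falls of small size were called in several metabolic lists, most often among fatty acid and branched-chain amino acid genes. Of 38 genes that take up or oxidise fatty acids 25 were lower and none higher (65.8% called, beside 8.69% of all genes tested), with a median log2 fold change of -0.49, and 12 of the falls passed in the pooled test only. Acsl1, which activates long-chain fatty acids (gene number 14081, chromosome 8, 46471037 to 46536051 in GRCm38.p6), had 478, 524 and 676 CPM in TAC hearts and 656, 816 and 893 CPM in sham hearts. The ranges met at their edges (log2 -0.50 ± 0.12, adjusted p = 0.0102). Slc25a20, the carnitine-acylcarnitine carrier, had 68.5, 75 and 95.3 CPM in TAC hearts and 94.5, 109 and 124 CPM in sham hearts (log2 -0.49 ± 0.12, adjusted p = 0.00893). The next step of the carnitine shuttle, Cpt2, had 111, 124 and 145 CPM in TAC hearts and 153, 169 and 191 CPM in sham hearts, without overlap (log2 -0.42 ± 0.10, adjusted p = 0.0135). Etfdh, which passes electrons of beta-oxidation to ubiquinone, had 208, 246 and 318 CPM in TAC hearts and 320, 344 and 385 CPM in sham hearts, also without overlap (log2 -0.45 ± 0.11, adjusted p = 0.0143). By contrast the fatty acid transporter Cd36 (log2 -0.19 ± 0.12) and the muscle carnitine palmitoyltransferase Cpt1b (-0.12 ± 0.19) did not pass.

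The falls in amino acid and ketone use were all genes of branched-chain amino acid breakdown, and the called gene of ketone use rose. Of 23 genes of branched-chain amino acid and ketone use 13 were lower and 1 higher (60.9% called), with a median of -0.46, and 7 of the falls and the rise passed in the pooled test only. Dbt, a subunit of the branched-chain ketoacid dehydrogenase, had 33.5, 39.7 and 41.9 CPM in TAC hearts and 43.2, 57.3 and 69.2 CPM in sham hearts (log2 -0.56 ± 0.12, adjusted p = 0.00572). Acadsb, which dehydrogenates branched short-chain acyl-CoA, had 68.4, 82.8 and 96.8 CPM in TAC hearts and 106, 114 and 126 CPM in sham hearts (log2 -0.46 ± 0.11, adjusted p = 0.0093). Neither overlapped between the groups. The transaminase Bcat2 fell by 0.61 ± 0.16 and the methylmalonyl-CoA mutase Mmut by 0.49 ± 0.12 on the log2 scale. The rise was Bdh1, the first enzyme of ketone oxidation, with 144, 178 and 221 CPM in TAC hearts and 94.4, 123 and 201 CPM in sham hearts (log2 0.46 ± 0.14, adjusted p = 0.0412). Its call was lost in 10 of the 12 fits, with an adjusted p up to 0.113 without filtered air sham replicate 2, and in the edgeR fit without the robust setting, in limma voom and without the exposure term.

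The median changes of the citric acid cycle and the respiratory chain were also negative, and smaller. In the citric acid cycle 6 of 23 genes were lower and none higher (median -0.33). In complexes II to V 12 of 39 nuclear genes were lower and none higher (median -0.26), 10 of them in the pooled test only. In complex I, 3 of 36 were lower and none higher, but 35 of the 36 had a negative sign (median -0.27). All 13 mitochondrially encoded genes tested had a negative sign (median -0.32) and 1 passed. These shares of 26.1%, 30.8%, 8.33% and 7.69% of members called stand against 8.69% over all genes tested, so the last pair is near the background. The counts depended on single libraries. Citric acid cycle falls were 2 without diesel exhaust TAC replicate 1, 3 without any 1 of filtered air sham replicates 2 and 3, filtered air TAC replicate 2, diesel exhaust sham replicates 1 and 3 and diesel exhaust TAC replicate 2, and 10 with DESeq2. Falls in complexes II to V were 3 without diesel exhaust TAC replicate 2 or 3 and 6 without any 1 of filtered air TAC replicate 2 and diesel exhaust sham replicates 1 and 2. Falls in complex I were 0 without diesel exhaust sham replicate 1, 1 without any 1 of filtered air TAC replicate 2 and diesel exhaust TAC replicates 2 and 3, 5 without filtered air TAC replicate 1, 7 without diesel exhaust TAC replicate 1 and 5 with DESeq2.

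Single members of these complexes were close to what 12 hearts resolve. Sdha, the flavoprotein of complex II, had 678, 867 and 1156 CPM in TAC hearts and 936, 1272 and 1649 CPM in sham hearts, with overlap (log2 -0.58 ± 0.15, adjusted p = 0.0143), and was lost without diesel exhaust sham replicate 1 (adjusted p = 0.0521). Atp5d, a subunit of ATP synthase, had 47.5, 56.4 and 64.3 CPM in TAC hearts and 63.7, 76.2 and 90.3 CPM in sham hearts (log2 -0.49 ± 0.12, adjusted p = 0.00943). Among the called complex I genes were Ndufs7 (log2 -0.49, lost without diesel exhaust sham replicate 1, adjusted p = 0.0548) and Ndufa13 (-0.53, lost in 9 fits). Without diesel exhaust TAC replicate 3 the adjusted p was 0.131 for Ndufa13. In the cycle, citrate synthase Cs (-0.42) and the isocitrate dehydrogenase subunit Idh3a (-0.40) were lost in 7 and 6 fits, with adjusted p up to 0.0832 without diesel exhaust sham replicate 3 for Cs and 0.0673 without diesel exhaust sham replicate 1 for Idh3a. The called mitochondrial gene was ND6 (log2 -0.52 ± 0.16, adjusted p = 0.047), lost in 8 fits with an adjusted p up to 0.121 without diesel exhaust sham replicate 1, and under 4 of 8 other settings, 1 of them TMM factors computed without mitochondrial genes.

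**Figure D5:**
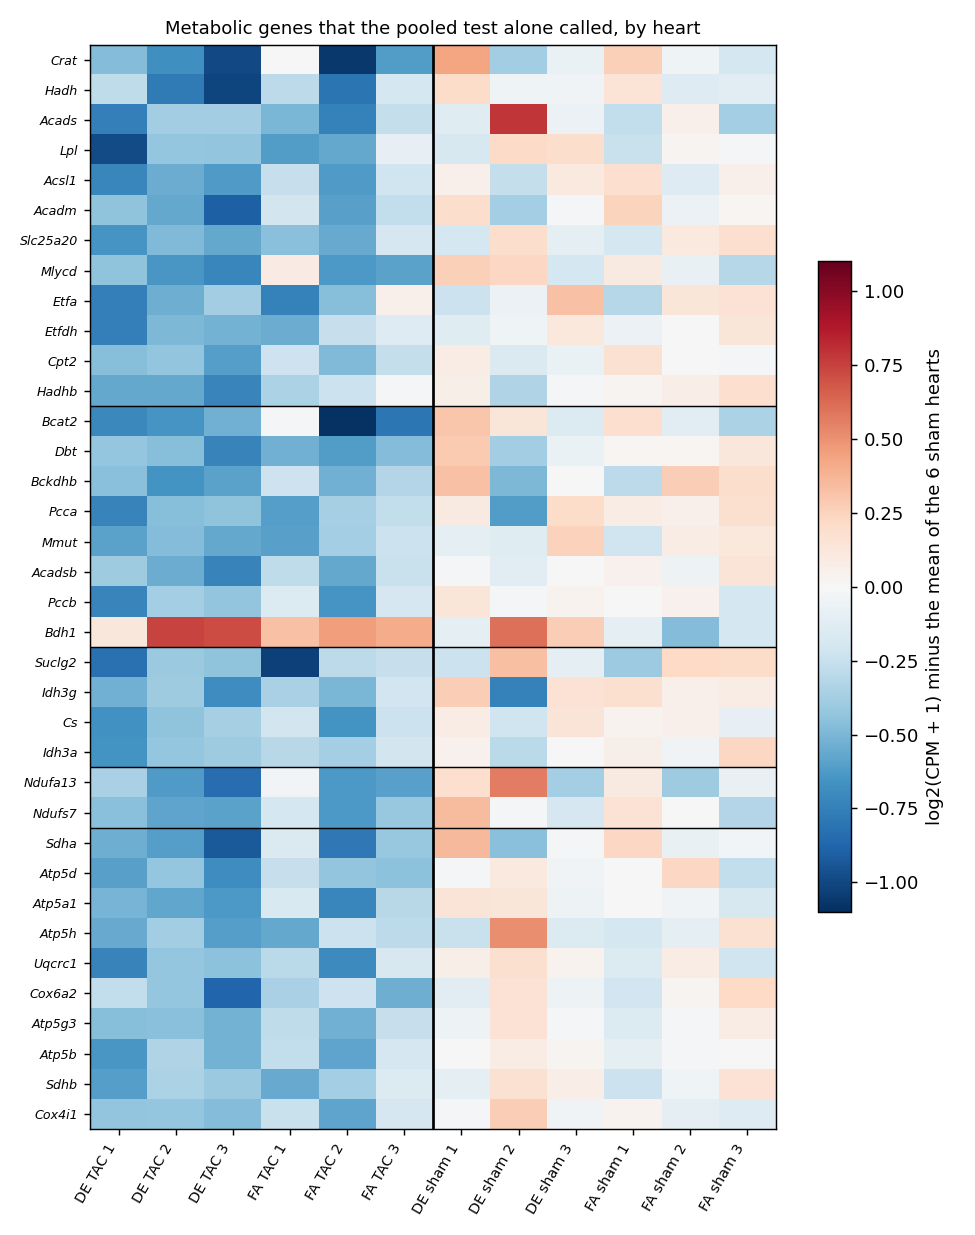
Log2(CPM + 1) of 36 metabolic genes that passed the pooled threshold alone (rows), minus the mean of the 6 sham hearts, in 6 TAC libraries (left) and 6 sham libraries (right), with blue below and red above that mean. In every TAC library 34 or 35 of the 36 genes lay below the sham mean, against 15 to 23 in the sham libraries, and the genes were chosen for this difference.

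Glucose genes and regulators were mixed. Of 30 genes of glucose uptake, glycolysis and glycogen 9 were lower and 2 higher (36.7% called, beside 8.69% of all genes tested, median -0.18), and 5 were lower without diesel exhaust sham replicate 3. Of those in the pooled test only, Ppp1r3c, which targets a phosphatase to glycogen, rose, with 72.4, 130 and 165 CPM in TAC hearts and 43.5, 70.7 and 83.4 CPM in sham hearts (log2 0.87 ± 0.20, adjusted p = 0.0133). Ldhb, the heart form of lactate dehydrogenase, fell by 0.52 ± 0.14 and was lost in 3 fits, with an adjusted p up to 0.0641 without diesel exhaust sham replicate 3. Among 22 transcriptional and hormonal regulators of metabolism 4 were lower and 1 higher (22.7% called, median -0.32). The falls were 10 without filtered air TAC replicate 1 and 2 without any 1 of filtered air TAC replicate 2 and diesel exhaust TAC replicates 1 and 3. Ppara, the fatty acid receptor that drives oxidation genes, had 84.3, 98.5 and 146 CPM in TAC hearts and 123, 144 and 194 CPM in sham hearts (log2 -0.53 ± 0.14, adjusted p = 0.0194), and was lost in 3 fits with an adjusted p up to 0.0601 without filtered air TAC replicate 2. Its partner Rxrg, a retinoid X receptor, had 25.8, 33.5 and 45.0 CPM in TAC hearts and 42.7, 47.5 and 65.5 CPM in sham hearts (log2 -0.55 ± 0.13, adjusted p = 0.00992).

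The other called regulators were Klf15, a repressor of hypertrophy (log2 -0.78 ± 0.15), the thyroid hormone receptor Thrb (-0.61 ± 0.18) and the deiodinase Dio2, which activates thyroid hormone. Thrb was lost in 8 fits, with an adjusted p up to 0.128 without diesel exhaust sham replicate 3. Dio2 had 3.69, 15.8 and 28.4 CPM in TAC hearts and 0.128, 1.16 and 2.35 CPM in sham hearts (log2 3.56 ± 0.59, adjusted p = 0.00359). The coactivator Ppargc1a (log2 -0.55 ± 0.34, adjusted p = 0.395) and the receptor Esrra (-0.39 ± 0.19, adjusted p = 0.251) did not pass. Of 13 creatine and adenylate kinase genes 1 was lower (7.69%, below the 8.69% of all genes tested), the mitochondrial adenylate kinase Ak4 (-0.55 ± 0.17), which was lost in 10 fits with an adjusted p up to 0.119 without filtered air TAC replicate 2.

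The same windows were searched in genes of the fatty acid, amino acid, citric acid cycle, respiratory and regulator lists for AAGGTCA, the half-site of the estrogen-related receptors (reverse TGACCTT). The letters were present in 6.15% of the 65 windows of called members, in 8.33% of the windows of members not called, in 3.21% of the windows of all genes tested and in 4.72% of all windows. Windows of the chromosome left out of the earlier printing were again counted but not printed. The called members, with 4 such windows, held the letters less often than members not called and more often than all genes tested. This says nothing about the receptors themselves, and the windows here are again those with the letters. The windows that hold them in the 3 members with the smallest p are given with the match in capitals, on the strand of the gene: Got1, cytosolic aspartate aminotransferase (chr19:43524556-43524855, minus strand), Rxrg (chr1:167618015-167618314, plus strand) and Acadm, medium-chain acyl-CoA dehydrogenase (chr3:153944594-153944893, minus strand).
Got1: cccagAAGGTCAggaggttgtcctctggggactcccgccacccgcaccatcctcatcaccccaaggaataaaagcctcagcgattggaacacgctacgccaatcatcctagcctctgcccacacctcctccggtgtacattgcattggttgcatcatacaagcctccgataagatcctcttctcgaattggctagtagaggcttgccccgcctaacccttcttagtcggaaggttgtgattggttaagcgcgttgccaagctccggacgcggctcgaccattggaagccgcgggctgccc
Rxrg: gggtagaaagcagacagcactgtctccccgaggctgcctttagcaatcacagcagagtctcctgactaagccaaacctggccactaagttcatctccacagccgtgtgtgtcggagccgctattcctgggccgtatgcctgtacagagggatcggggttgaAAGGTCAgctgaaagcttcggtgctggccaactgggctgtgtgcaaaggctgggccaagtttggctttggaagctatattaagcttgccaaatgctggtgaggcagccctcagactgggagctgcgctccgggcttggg
Acadm: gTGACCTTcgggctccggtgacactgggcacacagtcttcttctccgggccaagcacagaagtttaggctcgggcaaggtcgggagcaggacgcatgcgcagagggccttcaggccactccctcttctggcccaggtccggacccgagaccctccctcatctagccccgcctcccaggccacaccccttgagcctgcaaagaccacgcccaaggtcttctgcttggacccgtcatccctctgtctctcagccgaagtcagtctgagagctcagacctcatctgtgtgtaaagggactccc
Got1 fell by 0.60 ± 0.14 and Acadm by 0.50 ± 0.13 on the log2 scale. Acadm was lost in 2 fits, with an adjusted p up to 0.0549 without diesel exhaust TAC replicate 3.

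Ion channel genes that passed were mostly lower, and those resolved only by the pooled hearts include both calcium and potassium channels. Of 20 repolarising potassium channel genes 9 were lower and none higher (45% called, beside 8.69% of all genes tested, median log2 -0.44). Of 18 genes of sodium, calcium and gap junction conduction 5 were lower and 1 higher (33.3% called, median -0.46), with 3 lower without filtered air TAC replicate 2. Cacna1c, the pore of the L-type calcium channel (gene number 12288, chromosome 6, 118587240 to 119197384 in GRCm38.p6), had 231, 290 and 326 CPM in TAC hearts and 370, 381 and 412 CPM in sham hearts. No TAC heart reached the lowest sham heart (log2 -0.45 ± 0.11, adjusted p = 0.0118). Its auxiliary subunit Cacnb2 fell by 0.55 ± 0.14 and was lost without filtered air TAC replicate 2 (adjusted p = 0.0503). Kcnip2, the subunit that shapes the transient outward current, had 23.4, 35.4 and 56.1 CPM in TAC hearts and 38.0, 64.3 and 75.8 CPM in sham hearts (log2 -0.72 ± 0.18, adjusted p = 0.0132). Kcnj3, a channel opened by muscarinic receptors, had 9.01, 14.4 and 36.3 CPM in TAC hearts and 27.5, 39.2 and 46.1 CPM in sham hearts (log2 -1.12 ± 0.27, adjusted p = 0.0175). It was lost without diesel exhaust TAC replicate 3 (adjusted p = 0.0524) and in the fit without a filter on low counts.

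Kcnj2, the inward rectifier of the resting potential, fell by 0.45 ± 0.14 (adjusted p = 0.0486), but the call was lost in 10 fits, with an adjusted p up to 0.151 without diesel exhaust sham replicate 3, and under 5 of 8 other settings. Among channels that also passed in a 3 against 3 contrast were Kcnv2, Kcnd2, the pore of the transient outward current (log2 -1.31 ± 0.17), Kcnh2 of the rapid delayed rectifier (-0.98 ± 0.17), Kcnj5, partner of Kcnj3 (-0.72 ± 0.14), the leak channel Kcnk3 (-0.67 ± 0.15), Abcc9, the regulatory subunit of ATP-sensitive channels (-0.60 ± 0.12), the sodium channel pore Scn4a (-0.85 ± 0.17) and the sodium channel subunit Scn4b (-0.91 ± 0.17). Tbx5, a transcription factor of the conduction system, fell by 0.71 ± 0.20 and was lost in 6 fits, with an adjusted p up to 0.0757 without diesel exhaust TAC replicate 2. The connexin Gja1 (log2 -0.10 ± 0.21) did not pass.

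Calcium handling genes fell where they passed, and sarcomere and Z-disc genes changed in both directions. Of 18 calcium handling genes 4 were lower and none higher (22.2% called, beside 8.69% of all genes tested, median -0.10). Atp2a2, the calcium pump of the sarcoplasmic reticulum, had 3828, 4495 and 7265 CPM in TAC hearts and 6923, 8234 and 10020 CPM in sham hearts (log2 -0.79 ± 0.16, adjusted p = 0.00254). Ryr2, its calcium release channel, had 2024, 2393 and 3399 CPM in TAC hearts and 3001, 3820 and 4248 CPM in sham hearts, and passed in the pooled test only (log2 -0.57 ± 0.15, adjusted p = 0.0146). The others were Hrc, a calcium buffer of the reticulum (-0.86 ± 0.12), and the kinase Camk2a (-0.80 ± 0.14). Of 25 sarcomere and Z-disc genes 5 were higher and 5 lower (40% called), with 3 lower without filtered air sham replicate 1. The troponins Tnnt2 (log2 -0.58 ± 0.15) and Tnni3 (-0.74 ± 0.16) fell beside Myh6. Tnnt2 was lost without filtered air sham replicate 1 (adjusted p = 0.0517).

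Genes of neural and hormonal input changed in both directions. Of 23 adrenergic and vasoactive receptors and their partners 8 were lower and 3 higher (47.8% called, beside 8.69% of all genes tested), and 13 had a negative and 10 a positive sign (median -0.21). Beside Chrm2, Adrb1, the main beta-adrenergic receptor of cardiomyocytes, had 10.1, 11.2 and 12.3 CPM in TAC hearts and 14.6, 17.54 and 20.9 CPM in sham hearts. This fall of 1.56-fold had no overlap and passed in the pooled test only (log2 -0.65 ± 0.15, adjusted p = 0.00949). Aplnr, the apelin receptor, rose, with 24.1, 42.2 and 57.9 CPM in TAC hearts and 22.2, 24.5 and 33.9 CPM in sham hearts (log2 0.68 ± 0.16, adjusted p = 0.0103).

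The summed level of 14 ventricular cardiomyocyte markers had a median of 102000 CPM in TAC hearts and 133000 CPM in sham hearts. It ranged from 87600 to 139000 CPM in TAC hearts and from 115000 to 157000 CPM in sham hearts, with overlap. Of the 14 markers 5 were lower (Myh6, Tnni3, Tnnt2, Ryr2 and the natriuretic peptide protease Corin) and 1 higher (Csrp3), 42.9% called beside 8.69% of all genes tested. Myh6, Tnni3, Tnnt2 and Ryr2 are themselves among the falls given above, so the markers are not a separate reading of those falls. None of the markers was at 0. The list median was -0.23, beside -0.49 for fatty acid genes and -0.44 for potassium channels. The part of cardiomyocyte content in the falls of metabolic and channel genes was not tested.

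Of 18 clock genes 5 were lower and none higher (27.8% called, beside 8.69% of all genes tested). The falls were 2 without any 1 of filtered air sham replicate 2, filtered air TAC replicate 2, diesel exhaust sham replicate 1 and diesel exhaust TAC replicate 3, and 3 without filtered air sham replicate 1, without diesel exhaust TAC replicate 2 and in the edgeR fit without the robust setting. Dbp, an output factor of the clock, had 28.5, 31.3 and 34.1 CPM in TAC hearts and 42.7, 50.9 and 56.4 CPM in sham hearts (log2 -0.68 ± 0.12, adjusted p = 5.96e-04), and the repressor Ciart fell by 1.11 ± 0.21, both without overlap. Those in the pooled test only were Cry2 (-0.56 ± 0.16), Tef (-0.45 ± 0.13) and Per3 (-0.47 ± 0.14), lost in 4, 8 and 10 fits, with adjusted p up to 0.089 without diesel exhaust sham replicate 1 for Cry2, 0.116 without filtered air TAC replicate 2 for Tef and 0.107 without filtered air sham replicate 1 for Per3. The time of day of tissue collection is not stated in these sources.

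Of 28 genes of the unfolded protein response and secretory pathway 5 were lower and 1 higher (21.4% called, beside 8.69% of all genes tested), with 3 lower without diesel exhaust TAC replicate 3. Hspa5, the main chaperone of the endoplasmic reticulum, had 262, 304 and 357 CPM in TAC hearts and 414, 463 and 619 CPM in sham hearts (log2 -0.63 ± 0.12, adjusted p = 0.00133). The disulfide isomerase Pdia6 had 36.7, 44.6 and 48.9 CPM in TAC hearts and 54.6, 59.8 and 69 CPM in sham hearts and passed in the pooled test only (log2 -0.47 ± 0.11, adjusted p = 0.00646). Both were separate between the groups, and the chaperone Hyou1 fell by 0.54 ± 0.13. The rise was Rcn3, a reticulum protein of collagen-making cells (1.05 ± 0.17).

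Of 23 cell cycle genes 7 were higher and 1 lower (34.8% called, beside 8.69% of all genes tested), 5 of the rises in the pooled test only. The rises were 3 without filtered air TAC replicate 2 and 4 without diesel exhaust TAC replicate 1. Ccnd2, cyclin D2, had 146, 206 and 258 CPM in TAC hearts and 111, 137 and 153 CPM in sham hearts (log2 0.59 ± 0.13, adjusted p = 0.00607). Anln, a scaffold of the cleavage furrow, rose by 1.35 ± 0.35 and was lost without filtered air TAC replicate 2 (adjusted p = 0.0561). The kinetochore gene Cenpf fell, with 5.13, 8.13 and 11.4 CPM in TAC hearts and 22.1, 27.4 and 33.7 CPM in sham hearts (log2 -1.78 ± 0.21, adjusted p = 6.19e-06).

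Protein turnover and translation lists gave 2 to 4 calls each, with 15.4% of lysosome, 8.33% of proteasome and ubiquitin ligase, 11.5% of translation and 6.45% of ribosomal protein genes past the threshold beside 8.69% over all genes tested. Of 26 lysosome genes 3 were higher and 1 lower, and the rises were 6 without filtered air TAC replicate 1, 7 with DESeq2 and 5 without the exposure term. Ctsk and the protease Ctsz (log2 0.86 ± 0.16) rose, and the saposin precursor Psap fell (-0.45 ± 0.12) and was lost in 6 fits, with an adjusted p up to 0.0686 without filtered air TAC replicate 2. Of 24 proteasome and muscle ubiquitin ligase genes 2 were lower, Asb15 (-0.96 ± 0.13) and Klhl38 (-0.67 ± 0.18, lost in 4 fits, adjusted p up to 0.0611 without diesel exhaust sham replicate 1). Of 26 genes listed under translation factors and tRNA synthetases 3 were higher. They were the elongation factor Eef1a1 (0.50 ± 0.12), Nars (0.39 ± 0.12, lost in 9 fits, adjusted p up to 0.12 without diesel exhaust sham replicate 3) and Mthfd2 (1.55 ± 0.31). Mthfd2 is an enzyme of mitochondrial one-carbon metabolism and belongs to neither class, although the 11.5% counts it. Of 31 cytosolic ribosomal protein genes 1 was higher, Rpl3 (0.60 ± 0.19, lost in 10 fits, adjusted p up to 0.134 without diesel exhaust TAC replicate 3), and 1 lower, Rps2 (-0.60 ± 0.17, lost in 3 fits, adjusted p up to 0.0787 without diesel exhaust sham replicate 2).

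Interferon and complement genes gave more rises than falls, and antioxidant genes changed in both directions. Of 29 antioxidant and oxidant enzymes 4 were higher and 3 lower (24.1% called, beside 8.69% of all genes tested, median log2 0.07). In the pooled test only were 2 of these rises and 1 of the falls. Those rises were Cyp1b1, a cytochrome P450 (1.05 ± 0.26), and extracellular superoxide dismutase Sod3 (0.66 ± 0.18, lost in 6 fits, adjusted p up to 0.0734 without diesel exhaust TAC replicate 2). Of 24 interferon and antigen presentation genes 4 were higher and none lower (16.7% called), and the rises were 2 without any 1 of filtered air TAC replicate 2, diesel exhaust sham replicate 3 and diesel exhaust TAC replicates 1 and 2. They were B2m, the light chain of class I molecules (0.66 ± 0.15), Rsad2, the antiviral viperin (0.91 ± 0.19), Ifi27l2a (0.81 ± 0.23) and the transcription factor Irf7 (0.89 ± 0.26). Without filtered air TAC replicate 2 the adjusted p was 0.113 for Ifi27l2a and 0.1 for Irf7, which were lost in 7 and 9 fits. Of 27 complement and chemokine genes 6 were higher and 1 lower (25.9% called), and 10 were higher without diesel exhaust sham replicate 2. Cfi, which cleaves complement C3b, had no count in any of the 6 sham libraries and 0 to 1.89 CPM in TAC libraries, so no fold is given.

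Of 31 genes of growth factor, Wnt and IGF signalling 9 were higher and 4 lower (41.9% called, beside 8.69% of all genes tested), with 2 lower without filtered air TAC replicate 2 or without diesel exhaust sham replicate 1. Fzd1, a Wnt receptor, had 6.68, 11.8 and 16.1 CPM in TAC hearts and 3.46, 5.29 and 7.78 CPM in sham hearts (log2 1.00 ± 0.23, adjusted p = 0.00697). Of 29 cardiac transcription factors 3 were higher and 2 lower (17.2% called), with 5 higher without diesel exhaust sham replicate 2. Meox1, a homeobox factor of activated fibroblasts, had 22.9, 29.9 and 45.3 CPM in TAC hearts and 4.33, 11.1 and 12.9 CPM in sham hearts (log2 1.74 ± 0.22, adjusted p = 2.83e-05). Runx1 rose in the pooled test only, with 3.82, 6.07 and 6.26 CPM in TAC hearts and 1.30, 1.98 and 4.67 CPM in sham hearts (log2 1.35 ± 0.30, adjusted p = 0.00515). Sox9, a factor of matrix-producing cells, rose by 1.51 ± 0.37 and was lost without diesel exhaust TAC replicate 3 (adjusted p = 0.0561). Foxo3 (-0.55 ± 0.15) and Zfpm2 (-0.55 ± 0.17) fell and were lost in 5 and 9 fits, with adjusted p of 0.0774 for Foxo3 and 0.148 for Zfpm2 without filtered air TAC replicate 2. Zfpm2 was also lost under 4 of 8 other settings.

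The macrophage markers that passed were rises, mostly in the pooled test only. Of 15 markers 6 were higher and none lower (40% called, beside 8.69% of all genes tested), 5 of them in neither 3 against 3 contrast, and the summed level was 287 to 395 CPM in TAC hearts and 198 to 372 CPM in sham hearts, with overlap. Cx3cr1, the fractalkine receptor (gene number 13051, chromosome 9, 120048683 to 120068296 in GRCm38.p6), had 2.90, 6.04 and 9.76 CPM in TAC hearts and 0.382, 1.38 and 3.31 CPM in sham hearts. The groups overlapped at 1 edge (log2 1.98 ± 0.42, adjusted p = 0.00435). Csf1r, the receptor that keeps macrophages alive, had 50.7, 64.3 and 66.4 CPM in TAC hearts and 32.5, 36.9 and 59.7 CPM in sham hearts (log2 0.58 ± 0.13, adjusted p = 0.00757), and the mannose receptor Mrc1 rose by 0.61 ± 0.13. The monocyte receptor Ccr2 (1.17 ± 0.34), the pan-leukocyte Ptprc (0.67 ± 0.19) and the integrin Itgam (0.81 ± 0.24) were lost in 6, 6 and 9 fits. Without filtered air TAC replicate 2 the adjusted p was 0.179 for Ccr2 and 0.151 for Itgam, and without diesel exhaust sham replicate 1 it was 0.0857 for Ptprc. The number of macrophage markers called was 3 without any 1 of filtered air TAC replicate 2, diesel exhaust sham replicate 1 and diesel exhaust TAC replicates 2 and 3. Cd68 (log2 -0.04 ± 0.28) and C1qa (0.30 ± 0.27) did not pass.

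Markers of other cells gave calls in both directions. Of 13 endothelial markers 2 were higher (15.4% called, beside 8.69% of all genes tested), Ly6c1 (0.51 ± 0.12) and Pecam1 (0.39 ± 0.12, lost in 11 fits, adjusted p up to 0.121 without diesel exhaust TAC replicate 1), and the summed level was 1220 to 1520 CPM in TAC hearts and 1120 to 1250 CPM in sham hearts. Of 12 smooth muscle and pericyte markers 2 were higher and 3 lower (41.7% called). The pericyte receptor Pdgfrb had 102, 108 and 122 CPM in TAC hearts and 66.7, 82.0 and 87.4 CPM in sham hearts, a separate rise (log2 0.47 ± 0.11, adjusted p = 0.00705), and Cspg4 rose by 0.50 ± 0.15. Acta2, Abcc9 and the contractile protein Smtn (-0.42 ± 0.11, lost in 3 fits, adjusted p up to 0.0637 without filtered air TAC replicate 2) fell. Dbh, the enzyme of noradrenaline synthesis in sympathetic nerves, had 0.199 to 0.954 CPM in TAC hearts and 1.33 to 5.5 CPM in sham hearts. It was the only called gene of 4 tested markers of nerve and Schwann cells (log2 -2.04 ± 0.50, adjusted p = 0.0125) and was lost in 2 fits, with an adjusted p up to 0.0605 without filtered air sham replicate 1.

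The 8 atrial markers summed to 460 to 1730 CPM in TAC hearts and 64.9 to 118 CPM in sham hearts, of which Nppa made up most, and Nppa and Dkk3 passed. Bmp10 was at 0 in all 12 libraries, and Myl7 (log2 0.99 ± 1.01), Sln (1.87 ± 0.99) and Myl4 (0.51 ± 0.60) did not pass. Neutrophil markers summed to 3.33 to 6.38 CPM in TAC hearts and 1.69 to 4.67 CPM in sham hearts, with Camp at 0 in all libraries. Lymphocyte markers summed to 2.01 to 5.43 CPM in TAC hearts and 1.5 to 2.75 CPM in sham hearts. Erythrocyte markers, chiefly globins, summed to 441 to 655 CPM in TAC hearts and 342 to 663 CPM in sham hearts. Mesothelial markers summed to 6.20 to 18.5 CPM in TAC hearts and 5.04 to 20.5 CPM in sham hearts. Lung and thymus markers each stayed below 1 CPM in every library.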

How the data were processed

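Per the labels' protocols, total RNA of frozen heart tissue was depleted of ribosomal RNA and made into libraries with an Ion Total RNA-Seq kit, with 4 samples per run. Per the submitters' processing notes, the tools were cutadapt 1.6, Subread 1.4.2 and featureCounts with the build mm10. The authors deposited raw, unnormalised counts for 27179 genes, each named by its Entrez number. Strand setting, annotation version and the handling of multimapping reads are not stated there, so counts of paralogs, of overlapping genes and of antisense partners cannot be told apart. Symbols came from RefSeq (GRCm38.p6) for 25275 genes and from GENCODE for 18, by gene number. The 1886 genes without a name held 4.19% of counts and stayed in the tests. No 2 libraries were copies of each other.

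Counts were analysed in R 4.3.3 with edgeR 4.0.16: TMM factors, filterByExpr over 4 groups with a count minimum of 10, and a robust quasi-likelihood fit of exposure plus surgery to all 12 libraries (9 residual degrees of freedom). The 3 against 3 contrasts and the interaction came from a fit with a mean per group (8 degrees of freedom). The Benjamini-Hochberg adjustment ran over all 13626 genes tested and calls were made at 0.05. The SE of a log2 fold change was derived from its quasi-likelihood F. Nothing in the labels says that hearts of 1 group came from separate litters, and p-values measure only the spread between these samples. Replicate numbers follow accession order and pair no samples. The fits were also run on simulated counts with a known TAC change and no exposure effect, and the outcome is not given here.

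Lists are described by counts and medians, without a set test. The gene lists and naming rules were chosen with earlier results of these data known. Named are the 12 rises and 12 falls with the smallest p among genes called in the pooled test only with a mean of at least 5 CPM, the 5 rises and 5 falls of greatest fold averaging at least 1 CPM without overlap, 8 hallmark genes, the leading members of each list, all called channel, clock and marker genes, and, for the printed promoters, the members with the smallest p whose window holds the motif. Flnc, Ltbp1, Ltbp4, Htra1, Itga5, Lgals1, Cpt2, Etfdh, Bcat2, Mmut, Bdh1, Aplnr, Hspa5, Rcn3, Cenpf and the genes given as not passing were named after their values were seen. Some genes that these rules select are not reported here. Alternatives were DESeq2 size factors, TMM without mitochondrial genes, no filter, a fit that is not robust, DESeq2 1.42.0, limma voom (limma 3.58.1), no exposure term, the average of both contrasts, 3 against 3 contrasts on their own 6 libraries, and leaving out each library.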

Additional observations from a re-analysis of the deposited data

Results flagged for a closer look

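For each named gene, and for depth, mitochondrial share and Myh7 share, the 6 TAC and the 6 sham libraries were examined for 1 library far from the other 5. Of 334 such groups 17 had one, and chance gives about 1 in 20.

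Diesel exhaust sham replicate 2 held 7 of them, beside its low depth. It was highest for Col18a1, with 17.4 CPM against 5.04 to 7.93 in the other sham hearts, for Col1a2, with 183 against 70.2 to 97.6, for Kcnk3, with 299 against 169 to 194, and for Ctsz, with 23.0 against 12.7 to 15.6. It was lowest for Kcnj2, with 39.1 against 60.5 to 73.2, for Cacnb2, with 52.1 against 74.3 to 83.3, and for Pecam1, with 88.6 against 118 to 133.

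Filtered air TAC replicate 3 was lowest for Gpr153, with 18.7 CPM against 26.7 to 32.9 in the other TAC hearts, for Ankrd1, with 1737 against 2516 to 3105, for Runx1, with 3.82 against 5.83 to 6.26, and for Nars, with 55.6 against 67.6 to 74.8. Filtered air TAC replicate 1 was lowest for Cd9, with 21.2 against 29.3 to 33.5, and for Anln, with 1.43 against 5.37 to 5.94. Filtered air TAC replicate 2 was lowest for Smtn, with 58.2 against 68.5 to 72.9. Diesel exhaust TAC replicate 1 had the highest total count, 13265816 against 7837190 to 9101476. Among sham hearts, filtered air replicate 1 was lowest for Itga11, with 0.423 CPM against 2.11 to 4.18, and diesel exhaust replicate 3 was lowest for Nars, with 39.5 against 52.1 to 57.5. No named gene passed the adjusted threshold for the exposure by surgery interaction in edgeR.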

How the results depend on the processing

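No paired analysis was possible because the labels give the groups no shared replicate numbers, and numbers in accession order pair nothing. Under the 8 other settings the pooled test called 1079 to 1472 genes, against 1184, and under the 7 tried for it the count called in neither 3 against 3 contrast was 610 to 791, against 745. No call named here changed direction. Leaving out 1 library at a time moved the total between 722 and 1401, the rises between 384 and 666, the falls between 338 and 735, and the count in neither 3 against 3 contrast between 322 and 860. The lowest of each came without filtered air TAC replicate 2 and the highest without filtered air TAC replicate 1. Falls also dropped to 378 and 368 without diesel exhaust TAC replicates 2 and 3. The cause was not tested, beyond the loss of 1 library. Of the 164 genes named with a call, 116 kept it in all 12 such fits and 143 under all 8 other settings. Besides the losses given with the genes, Nars was lost under 3 of the 8, and Ndufa13, Per3, Rpl3 and Pecam1 under 2 each. Lost under 1 were Omd, Cspg4, Thrb, Ak4, Tef, Rps2, Ifi27l2a, Ddr2, Ccr2 and Itgam. The difference in Myh7 share, 7.65 percentage points, lay between 6.97 and 8.74 without 1 library, and permuting over all 12 hearts gave an exact p of 0.00216. Depth limits genes near the floor, such as Cfi, Ccl11 and Sbk2, whose lower group lies near or below it.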
